A study of Mus musculus with 140 samples.

Results

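The Tcl1 and Mm343880 knockdowns are 2 courses of a mouse embryonic stem cell series, and they were set against each other day by day. Members were chosen by title: samples of the Tcl1 hairpin and samples of the Mm343880 hairpin on days 0 to 6, on both the MOE430A and the MOE430B array. That gave 28 of the 140 arrays, or 14 of the 70 RNA samples, with 7 samples in each course. Both courses used CCE, a male stem cell line of the 129/Sv strain, kept in the cytokine LIF at 1000 units/ml throughout. Cells were transduced with the hairpin vector, and GFP-positive cells were sorted each day, with day 0 set 48 h after transduction. Cells that took up the vector with no hairpin, 7 samples on the same days, are the background here and had the same line, LIF and sort. Mm343880 is the only name the labels give for the second target, and its own transcript was not analysed here. The Mm343880 course runs to day 6, and each course has 1 sample a day. The labels name no independent culture or second hairpin, so p-values measure the spread around a smooth curve through the days.

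Tcl1 encodes a small protein that binds the kinase Akt and raises its activity, and Akt relays signals from phosphoinositide 3-kinase to growth and survival. In embryonic stem cells Tcl1 is transcribed as part of the pluripotency programme that Pou5f1, Sox2 and Nanog govern. Such cells are held in self-renewal by LIF through Stat3, while Fgf signalling through Erk moves them toward differentiation and induces its own inhibitors, among them the Sprouty and dual-specificity phosphatase genes.

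Values are MAS5 signals, the summary of one probe set on one array, and differences are of log2(signal + pseudocount), Tcl1 minus Mm343880, with pseudocounts of 62.6 on MOE430A and 21.8 on MOE430B. One probe set was kept for each of 14669 genes. A gene was called at an adjusted p under 0.05 (limma with Benjamini-Hochberg adjustment). On MOE430A the median signals of both courses overlapped, at 255 to 306 and 244 to 305. On MOE430B the late arrays, those of days 4 to 6, had medians of 64.5 to 85.1 in the Tcl1 course, 84.2 to 105 in the Mm343880 course and 89.1 to 106 with the empty vector. The 3′ to 5′ ratio of the Gapdh control probes, a measure of RNA integrity, also stood apart on late MOE430A arrays: 0.782 to 0.854 in the Tcl1 course, 0.874 to 0.898 in the Mm343880 course and 0.738 to 0.783 with the empty vector. On late MOE430B arrays it was 0.797 to 0.865, 0.93 to 1.06 and 0.816 to 0.853, and on days 0 and 1 there 0.772 to 0.797, 0.847 to 0.848 and 0.83 to 0.879. The part of these ratios in the results was not tested. Samples of one day may be paired, so a fit with day as a block is given beside many, though not all, of the results whose call it ended. All 8 stem cell markers (Pou5f1, Sox2, Nanog, Zfp42, Esrrb, Tdgf1, Utf1 and Dppa5a) were above the array median in the late samples of both courses. In bulk RNA, fewer cells of a type and less RNA per cell cannot be told apart.

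The Tcl1 transcript was lower in its own knockdown than in the Mm343880 knockdown on every day. Its signal on days 0 to 6 was 933, 707, 610, 596, 903, 654 and 832 in the Tcl1 course. In the Mm343880 course it was 2569, 1731, 1733, 1851, 2087, 1360 and 1388, and with the empty vector 2562, 1792, 2116, 2736, 3079, 2971 and 3987. The Tcl1 and Mm343880 ranges did not overlap. The day-matched differences averaged -1.20 ± 0.29 (SD, n = 7 days). An exact permutation test that flips the signs of the days, two-sided, gave p = 0.0156, which 7 days cannot go below, and 0.0468 adjusted over the 3 genes tested so. The fitted difference over days 0 to 6 was -1.20 ± 0.14 (SE; limma adjusted p = 1.58e-07), and the call held under all 27 other settings. Against the empty vector, with which both courses were compared, late Tcl1 was -2.04 ± 0.21 in its own course and -1.06 ± 0.21 in the Mm343880 course (limma adjusted p = 4.31e-08 and 0.00043). On days 0 and 1 those differences were -1.39 and -0.04, so Tcl1 was near the empty vector level at the start of the Mm343880 course and below it at the end. The late difference between the 2 knockdowns, -0.98 ± 0.21 (adjusted p = 0.00282), was -1.26 (adjusted p = 0.0651) without day 6 of the Tcl1 course and -0.63 (adjusted p = 0.428) without day 6 of the Mm343880 course.

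**Figure D1:**
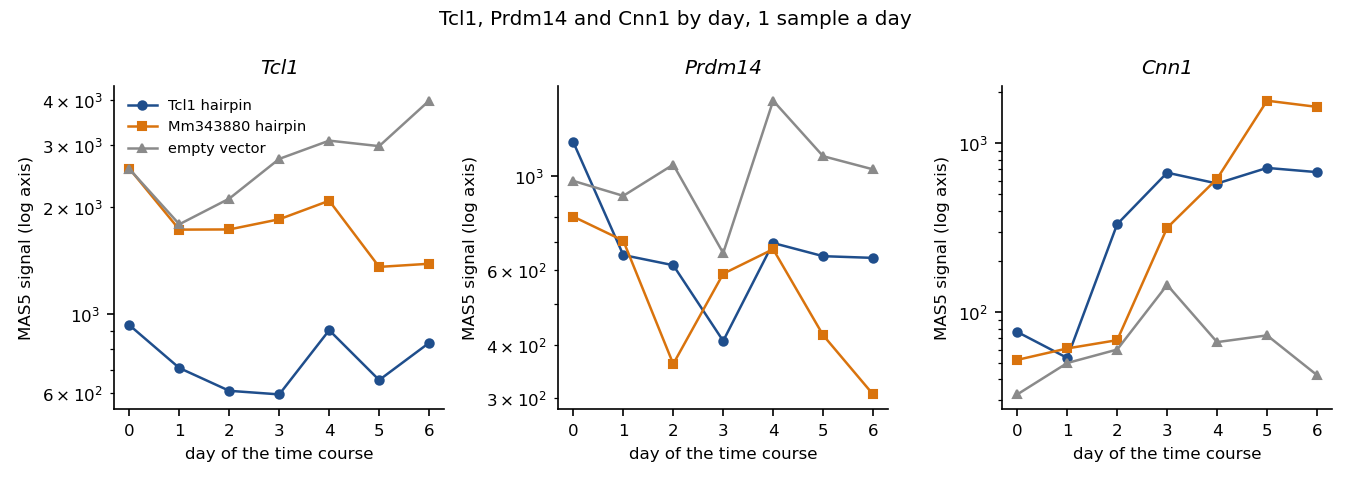
MAS5 signal (log axis) of Tcl1, Prdm14 and Cnn1 by day in the Tcl1 hairpin, Mm343880 hairpin and empty vector courses; each point is 1 sample. The Tcl1 transcript stays between 596 and 933 in its own course and at or above 1360 in the Mm343880 course, while Cnn1 climbs in both knockdowns and not with the empty vector.

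Prdm14, a repressor of differentiation genes in stem and germ cells, overlapped between the knockdowns. Its signal ran from 409 to 1203 in the Tcl1 course and from 306 to 803 in the Mm343880 course, and was higher in Tcl1 on 5 of 7 days. The day-matched difference averaged 0.34 ± 0.54 (SD, n = 7 days; exact sign-flip permutation p = 0.141). Cnn1, which encodes the smooth muscle protein calponin 1, climbed from 76.4 on day 0 to 675 on day 6 in the Tcl1 course. In the Mm343880 course it went from 52.2 to 1643. With the empty vector it was 32.6 and 42.4 on those days. Cnn1 rose sooner in the Tcl1 course, at 332 against 68.3 on day 2, and stood lower there on days 4 to 6. Its day-matched differences averaged 0.03 ± 1.04 (SD, n = 7 days; exact sign-flip permutation p = 0.969), and its late difference of -0.79 ± 0.30 missed the threshold (limma adjusted p = 0.104).

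Averaged over days 0 to 6, 1804 of the 14669 genes differed between the knockdowns, 12.3%. Of these, 841 were higher in Tcl1 (5.73% of all genes) and 963 lower (6.56%), and 28 and 100 of them differed by at least 2-fold. The split was 46.6% higher, against 51.2% after quantile normalization and 50.7% with arrays centred on their median gene. The count rests on the ends of both courses: it was 1048 without day 0 of Tcl1, 691 without day 0 of Mm343880, and 854 and 906 without their day 6. A core of 158 higher and 172 lower genes was called under each of 13 other settings and with each of the 14 samples left out. Of the called genes, 491 of the 841 and 584 of the 963 had that sign on all 7 days. Over all genes the shares were 5.09% and 5.58%. The call was made on the average of these same days and favours a shared sign, so these counts describe the called genes and are no test of them.

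Restricted to the late window, 1014 genes differed (6.91%), 440 higher in Tcl1 (3%) and 574 lower (3.91%). Only 6 and 5 of these were called under all 27 alternatives. The late count was 99 without day 6 of the Tcl1 course, 87 without day 6 of the Mm343880 course, and without day 4 or day 5 of the Tcl1 course 653 each. It was 438 with day as a block (231 higher and 207 lower). Lower calls were 291 on MOE430A and 283 on MOE430B, and higher calls 317 and 123. On MOE430B the median difference of all genes was -0.16, beside 0.02 on MOE430A. Quantile normalization turned the split to 509 higher and 379 lower, and centring on the median gene to 650 and 419. Among probe sets that name no gene, 46 were higher and 332 lower of 6139. The part of the dimmer MOE430B arrays in the lower calls was not tested.

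The steadiest differences were genes that the Mm343880 course held low from day 0 on. The signal of Ankrd13a, an ankyrin-repeat protein that binds ubiquitin, was 1731, 1924, 2134, 2026, 1703, 1883 and 2210 on days 0 to 6 of the Tcl1 course. In the Mm343880 course it was 440, 503, 812, 897, 576, 473 and 714. No sample of either course reached into the other's range, and the empty vector samples lay at 1384 to 1845, with Tcl1. The difference over all days was 1.57 ± 0.10 (SE; limma adjusted p = 6.38e-14).

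Hprt, the purine salvage enzyme often used as a reference transcript, followed the same course. It ran from 4050 to 6219 in the Tcl1 course, from 1430 to 1994 in the Mm343880 course and from 4590 to 6444 with the empty vector, 1.40 ± 0.09 apart (limma adjusted p = 2.94e-13). Fam98b, part of a tRNA ligase complex, lay at 2078 to 2867 against 744 to 1350 (1.26 ± 0.10, adjusted p = 2.1e-11). Gba2, a glucosylceramidase outside the lysosome, lay at 406 to 716 against 143 to 262 (1.25 ± 0.10, adjusted p = 7.28e-11). Arhgap19, a regulator of RhoA in dividing cells, lay at 894 to 1404 against 327 to 754 (1.22 ± 0.15, adjusted p = 4e-07). In each of these genes the Mm343880 samples were all below all of the Tcl1 samples. The late levels of Hprt, Ankrd13a, Fam98b, Gba2 and Arhgap19 against the empty vector were -1.43, -1.38, -1.02, -1.19 and -1.39 in the Mm343880 course (all called), and -0.08, 0.21, 0.43, -0.07 and -0.13 in the Tcl1 course (none called).

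The other 5 of the 10 largest differences in this direction were Dnajc5, a synaptic vesicle chaperone, Aard, Dnajc16, Reck, an inhibitor of matrix proteases, and Trp53inp2. A second probe set read 0.37 for Dnajc16 and 0.03 for Trp53inp2 (adjusted p = 0.481 and 0.968), while that of Arhgap19 read 0.76 (adjusted p = 0.000273). Both ranges were apart in 9 of the 10 genes. Set beside the other 6 courses of the series, Mm343880 had the lowest median of all 9 courses in 9 of the 10, the exception being Aard. The 10 were picked by their difference in these same samples, so a low Mm343880 rank is favoured by the choice. For Reck the Mm343880 median of 32.8 lay beside 33.9 with the empty vector. Hprt medians in those 6 courses were 2702 to 4767 and that of Mm343880 was 1670. For Ankrd13a they were 1618 to 2021 beside 576, and for Gba2 they were 360 to 632 beside 171. Hprt, Ankrd13a, Fam98b, Gba2 and Arhgap19 were called under all 27 other settings.

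**Figure D2:**
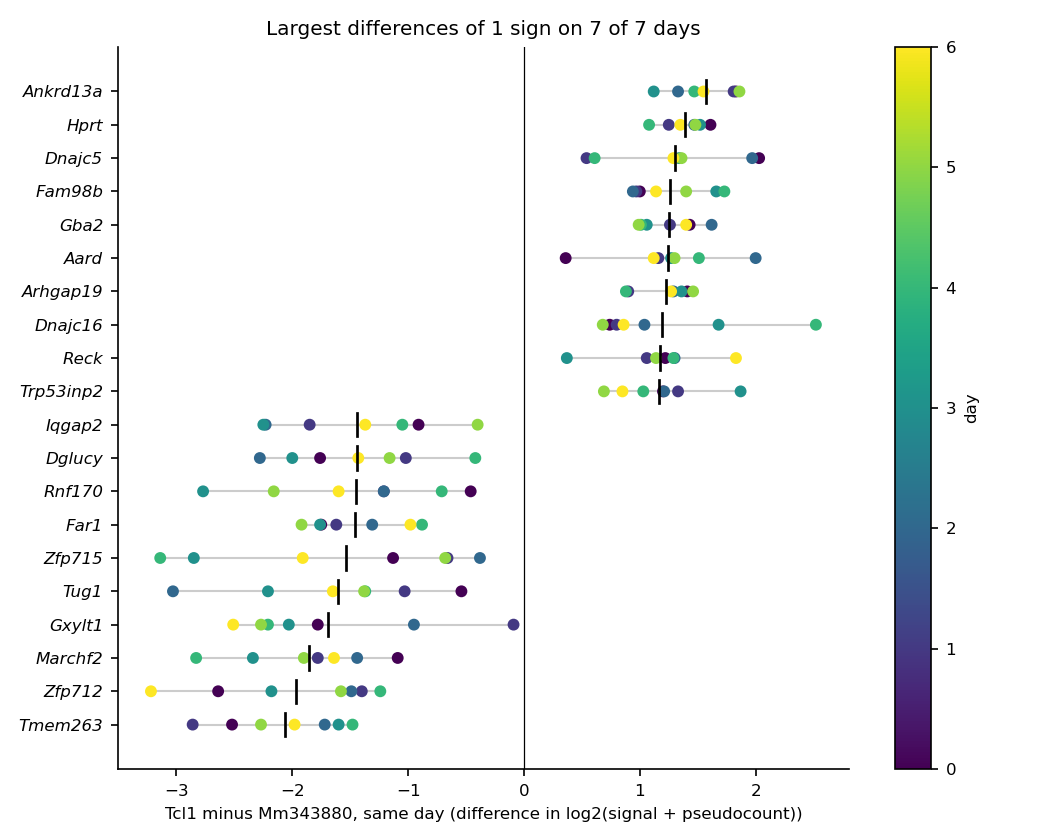
Day-matched differences (Tcl1 minus Mm343880, log2(signal + pseudocount)) for the 10 largest in each direction among genes called over days 0 to 6 with 1 sign on 7 of 7 days; points are days, coloured by day, and ticks are means. Ankrd13a and Hprt stay above 1 on each of the 7 days and Tmem263 below -1.4.

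In the opposite direction, Tmem263, which encodes a small membrane protein, was lowest in the Tcl1 course. Its signal there was 135, 45.2, 99.6, 208, 166, 183 and 191 on days 0 to 6, against 877, 466, 378, 678, 503, 963 and 816 in the Mm343880 course. The 2 ranges were apart, and the empty vector samples, at 336 to 926, lay with Mm343880. The difference over all days was -2.06 ± 0.17 (SE; limma adjusted p = 6.64e-11). Marchf2, a membrane-bound ubiquitin ligase, lay at 150 to 300 against 646 to 1200, -1.86 ± 0.15 apart (adjusted p = 3.01e-11). Far1, which makes fatty alcohols for ether lipids, lay at 44.3 to 154 against 203 to 664 (-1.46 ± 0.21, adjusted p = 8.74e-06). All 3 were called under each of the 27 other settings. Other probe sets differed less: that of Tmem263 read 0.15 (adjusted p = 0.665), that of Marchf2 -0.69 (adjusted p = 8.99e-07), and the 3 of Far1 -0.51, -0.47 and -0.29, the first of them called.

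The Tcl1 course had the lowest median of the 9 courses in 7 of the 10 largest differences of this direction, and ranges were apart in 5 of the 10. These 10 were also picked by their difference in the same samples, which favours a low Tcl1 rank. Tmem263 and Marchf2 were below the empty vector in the late Tcl1 course by the fit, at -1.18 and -1.55 (limma adjusted p = 0.00167 and 6.87e-06). Both genes were at 0.71 and 0.56 in the late Mm343880 course (adjusted p = 0.0493 and 0.0828), and the former call was lost with day as a block (adjusted p = 0.111). Together with Tmem263, Marchf2 and Far1, the 10 were Zfp712, Gxylt1, the long non-coding RNA Tug1, Zfp715, Rnf170, Dglucy and Iqgap2. A second probe set read -0.52 for Zfp712, -0.69 for Rnf170 and -0.16 for Iqgap2, none called, and those of Tug1 read -1.13, -0.04 and 0.17, the first called.

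**Figure D3:**
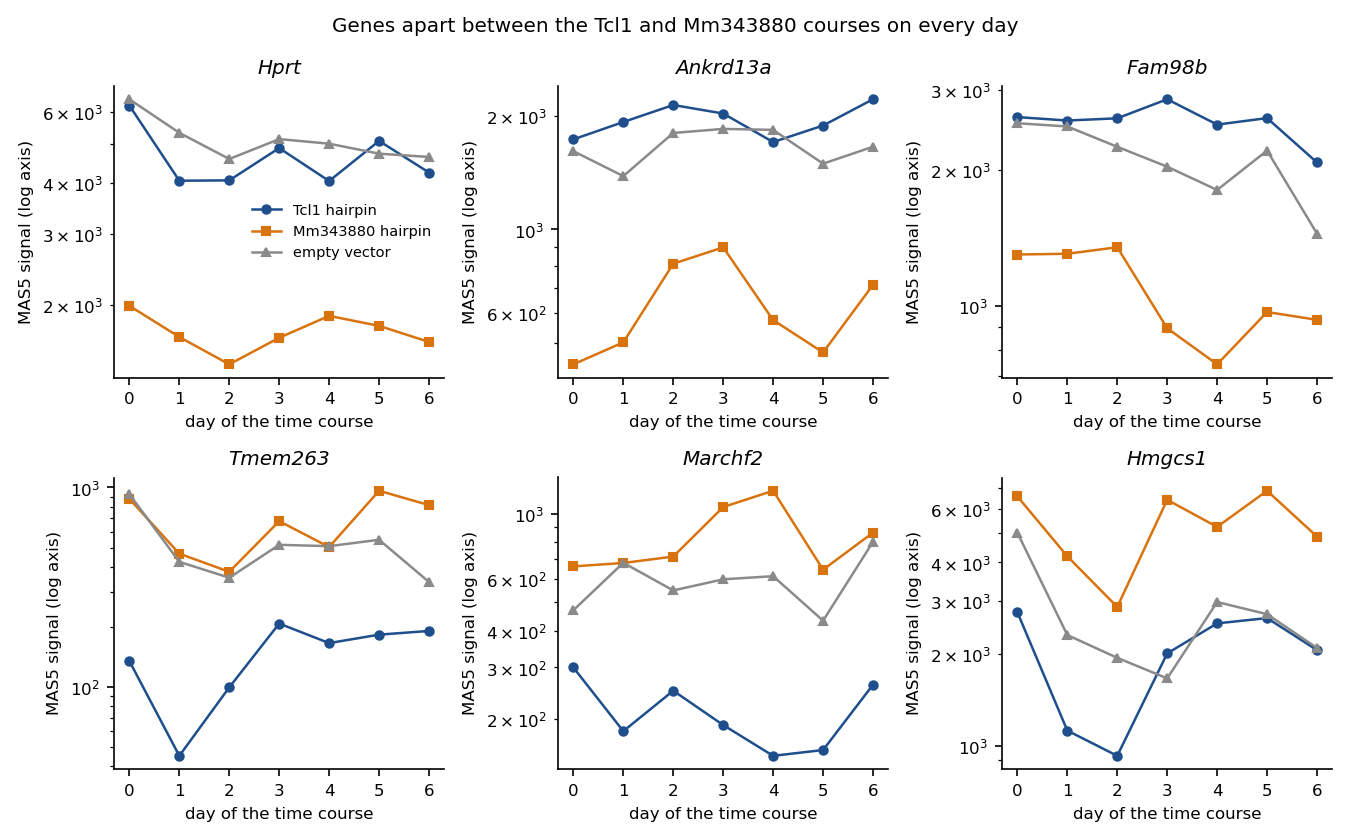
MAS5 signal (log axis) by day of Hprt, Ankrd13a and Fam98b (top) and Tmem263, Marchf2 and Hmgcs1 (bottom) in the Tcl1, Mm343880 and empty vector courses; each point is 1 sample. Top, Mm343880 lies below both other courses on every day; bottom, Tmem263 and Marchf2 are lowest in Tcl1 on every day, while Hmgcs1 in Tcl1 meets the empty vector from day 3.

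Genes of Fgf and Erk signalling were the list with the largest share of differences over all days. Of 23 measured (25 listed), 9 were higher in Tcl1 (39.1%, beside 5.73% of all genes) and 0 lower, with a median difference of 0.22 beside 0.00 over all genes. The 9 were the phosphatases Dusp6 and Dusp4, the inhibitors Spry4 and Spry1, the transcription factors Egr1, Fosl1 and Myc, and the receptors Fgfr1 and Fgfr3. The count ranged from 3 to 11 over the 27 other settings, with 0 lower in each. It was 3 without day 0 or day 6 of Tcl1, 4 without day 0 of Mm343880, 3 without its day 6, and 6 with no spline, with day as a block or with only these courses fitted.

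Dusp6, a phosphatase that Erk induces and that inactivates Erk, read 2999, 4795, 5045, 6816, 3784, 4277 and 3143 on days 0 to 6 of the Tcl1 course. In the Mm343880 course it read 2486, 2294, 2708, 1904, 1037, 2405 and 1735. Tcl1 was the higher course on 7 of 7 days and the ranges did not overlap. The difference was 1.06 ± 0.15 (SE; limma adjusted p = 4.37e-06), and Dusp6 held under all 27 settings. Its median in the Tcl1 course, 4277, was the highest of the 9 courses, and late Dusp6 was 1.09 above the empty vector in Tcl1 (adjusted p = 0.00103) and -0.07 in Mm343880 (adjusted p = 0.881).

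Spry4, an inhibitor of receptor tyrosine kinase signalling, lay at 730 to 1326 in Tcl1 and 352 to 893 in Mm343880 (0.85 ± 0.17, limma adjusted p = 0.000884). Here it was the Mm343880 course that was below the empty vector late, at -1.06 (adjusted p = 0.00402), with Tcl1 at 0.13 (adjusted p = 0.826). Egr1, an immediate early gene, was 1938 on day 0 and 1455 on day 1 in Tcl1, against 413 and 516. By day 6 it stood at 1302 against 640 (0.90 ± 0.23 over all days, adjusted p = 0.00662). Myc, the growth regulator, lay at 847 to 1118 against 297 to 700, with no overlap (0.78 ± 0.21, adjusted p = 0.0123). Fosl1, a partner of Jun, differed by 1.02 ± 0.26 (adjusted p = 0.00642). Higher in Tcl1 on all 7 days were 6 of the 9 genes. The remaining 14 genes of the list missed the threshold over all days; Fgf4 stood at 0.01, and the Erk targets Etv4 and Etv5 at 0.03 and 0.04. The 3 further probe sets of Spry4 were called too, at 0.54 to 0.97, but the 2 of Fgfr1 read 0.09 and -0.21. Dusp4, Fgfr1 and Myc missed the threshold with day as a block (adjusted p = 0.108, 0.0808 and 0.054). Of the 27 other settings, Dusp4 was called in 15, Fgfr1 and Fgfr3 in 18 each, Myc in 21 and Spry1 in 22. In the late window the called genes of this list were Fosl1, Spry4, Dusp6 and Fgf8. The first 3 were higher in Tcl1, at 1.31, 1.18 and 1.16, and Fgf8 was lower, at -0.97.

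**Figure D4:**
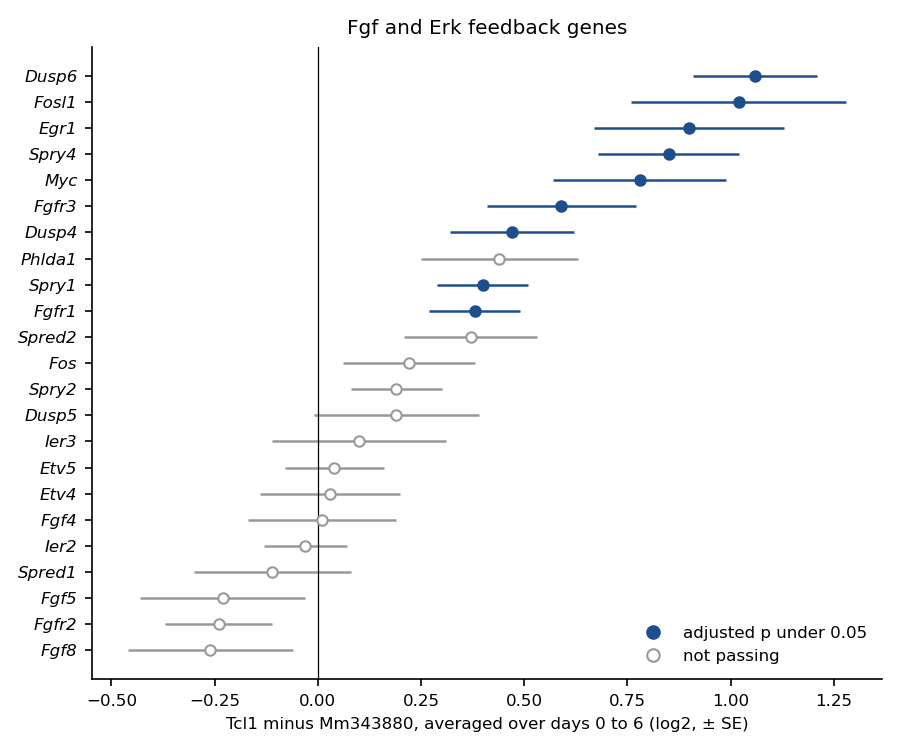
Difference between the Tcl1 and Mm343880 courses averaged over days 0 to 6 (log2, ± SE of the limma fit) for the 23 measured Fgf and Erk feedback genes; filled points passed at an adjusted p under 0.05. The 9 that passed lie at 0.38 to 1.06, all higher in Tcl1.

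Genes of the LIF, Wnt and Bmp pathways differed singly, and their counts are to be read beside 5.73% of all genes higher and 6.56% lower. Stat3, the transcription factor that LIF activates, ran from 1904 to 2556 in Tcl1 and from 1212 to 2069 in Mm343880, and was higher in Tcl1 on 7 of 7 days (0.45 ± 0.09, limma adjusted p = 0.000717). Other probe sets of Stat3 read 0.40 (adjusted p = 0.0417), -0.14 and -0.32. Gbx2, a homeobox target of Stat3, differed by 0.75 ± 0.15 (adjusted p = 0.000802). The LIF receptor Lifr was lower, at -0.74 (adjusted p = 0.00656). In that list 3 of 21 were higher (14.3%) and 1 lower (4.76%).

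Of 25 Wnt genes 3 were higher (12%) and 0 lower. Lef1, a transcription factor of the pathway, lay at 370 to 604 against 181 to 364, with no overlap (0.71 ± 0.18, limma adjusted p = 0.007). The others were Myc and Sfrp2, and with day as a block only Lef1 of the 3 passed (Sfrp2 at adjusted p = 0.183, Myc at 0.054). Among 15 genes of primed epiblast cells 3 were higher (20%) and 0 lower: Lef1, the zinc finger factor Zic2 (0.86 ± 0.19, adjusted p = 0.00207) and the DNA methyltransferase Dnmt3a (0.63 ± 0.14, adjusted p = 0.00276). Other probe sets of Dnmt3a read 0.57 (adjusted p = 0.0179), 0.00, -0.04 and -0.32.

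Of 28 Bmp, Nodal and Id genes 3 were higher and 3 lower (10.7% each, beside 5.73% and 6.56% of all genes). With day as a block 2 were higher and 3 lower. Id1, an inhibitor of differentiation that Bmp induces, lay at 2802 to 4431 against 1898 to 3678 (0.56 ± 0.09, limma adjusted p = 6.33e-05). Probe sets of the Bmp receptors disagreed. For Bmpr2 the chosen one was lower in Tcl1, at -1.79 ± 0.34 (adjusted p = 0.000362), and the other 2 read -0.07 and -0.32 (adjusted p = 0.869 and 0.699). For Bmpr1a the chosen one read -0.86 ± 0.22 (adjusted p = 0.007), and the others -1.08 and -0.53, both called, and -0.14 and -0.11, neither called.

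Of 35 pluripotency genes 2 were higher in Tcl1 (5.71%) and 5 lower (14.3%) over all days, beside 5.73% and 6.56% of all genes. Dppa2, a chromatin regulator of early embryos, read 6778, 6847, 8667, 7044, 4893, 7164 and 6268 in Tcl1. It read 5415, 5076, 5148, 2786, 2740, 3361 and 2408 in Mm343880, below Tcl1 on each day and farther below from day 3. The difference was 0.87 ± 0.15 (SE; limma adjusted p = 9.26e-05), and a second probe set read 0.92. Within the Mm343880 course Dppa2 fell by 0.94 from early to late (adjusted p = 0.00999; 0.0575 with day as a block). Nr0b1, a nuclear receptor of stem cells, differed by 0.67 ± 0.14 (adjusted p = 0.000766). Nr0b1 fell by 0.86 within Tcl1 and fell by 1.23 within Mm343880 (adjusted p = 0.0311 and 0.000263), and the former was lost with the block (adjusted p = 0.231).

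Zfp42, known as Rex1, a marker of naive cells, differed early and not late by the test. In Tcl1 it read 5302 on day 0, 2092 on day 2 and 3985 on day 6. In Mm343880 it read 10967 on day 0 and declined to 2320 on day 4 and 3309 on day 6, while the empty vector samples held 5535 to 9010. The early difference was -1.19 (limma adjusted p = 0.00627; 0.297 with day as a block) and the late one 0.32 (adjusted p = 0.386). The change within the Mm343880 course was -1.48 (adjusted p = 1.98e-05) and within Tcl1 0.03 (adjusted p = 0.986). The difference in change of Zfp42, 1.51, missed the threshold (adjusted p = 0.0651). Pou5f1 was lower in Tcl1 on 6 of 7 days, at 9880 to 16821 against 13120 to 18757 (-0.39 ± 0.12, adjusted p = 0.0229). Nanog, Sox2, Esrrb, Tbx3 and Dppa4 had differences of 0.00, -0.06, -0.09, 0.04 and 0.06, none past the test. Other probe sets of Esrrb read 0.58 (limma adjusted p = 0.00367) and 0.03, the former called higher in Tcl1. Rif1 and Fbxo15, the remaining called genes beside Tcl1 itself, were lower, at -0.71 and -0.35 (adjusted p = 0.0252 and 0.03). With day as a block 1 of the 5 lower genes passed, Tcl1 itself, and Pou5f1, Zfp42, Rif1 and Fbxo15 did not (adjusted p = 0.142, 0.211, 0.0981 and 0.17). Of the 27 other settings these 4 were called in 16, 17, 17 and 14.

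Few transcripts of the Akt pathway passed the test by their chosen probe sets. Of 44 measured, 0 were higher and 3 lower over all days (6.82%, beside 6.56% of all genes), with a median of -0.10. The kinases Akt1 and Akt2 differed by 0.08 ± 0.19 and 0.07 ± 0.11 (limma adjusted p = 0.832 and 0.764). Called were Pik3r3, a regulatory subunit of phosphoinositide 3-kinase (-0.62 ± 0.17, adjusted p = 0.0145), the Akt substrate Gsk3b (-0.42 ± 0.12, adjusted p = 0.0138), and the translation repressor Eif4ebp1 (-0.24 ± 0.08, adjusted p = 0.0333). Gsk3b lay at 340 to 490 in Tcl1 and 378 to 735 in Mm343880, and was the lower in Tcl1 on 7 of 7 days. Pik3r3 alone passed with day as a block, Gsk3b and Eif4ebp1 being at adjusted p = 0.0724 and 0.138. Eif4ebp1 was called in 9 of the 27 other settings, and its other probe sets read -0.05 and 0.15. Some unchosen probe sets of the list were called. Lower were those of Pdpk1 at -1.35, Pik3ca at -1.03 and -0.99, and Gsk3b at -0.53. Higher were those of Akt1s1 at 0.56 and Eif4e at 0.32 (limma adjusted p = 2.75e-05 to 0.0319 for these probe sets). The remaining unchosen probe sets of Pdpk1, Pik3ca, Gsk3b, Akt1s1 and Eif4e were not called over all days. Targets of the Foxo factors, which Akt restrains, numbered 1 higher and 1 lower of 20 (5% each, beside 5.73% and 6.56%): Bcl2l11, a cell death gene (0.42, adjusted p = 0.0046), and Pmaip1 (-0.59, adjusted p = 0.0333). Neither passed with the block (adjusted p = 0.052 and 0.109), and Pmaip1 was called in 12 of the 27 settings. All other probe sets of Bcl2l11 were called higher in the unpaired fit, at 0.39 to 0.62. In the late window 0 of the 44 Akt pathway genes were higher and 2 lower (4.55%, beside 3.91%), Pik3ca at -0.79 and Eif4ebp1 at -0.37. Unchosen probe sets called lower late were those of Gsk3b (-1.55, -1.55 and -1.14), Pdpk1 (-1.68), Pik3ca (-1.44) and Igf1r (-1.01). Those called higher late were of Akt1s1 (1.27) and Akt2 (0.59). Limma adjusted p was 0.000583 to 0.0431 for these late probe sets.

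Contractile genes and targets of the serum response factor Srf rose within both courses. Between the early and the late days 15 of 34 measured (37 listed) rose in Tcl1 (44.1%, beside 1.57% of all genes) and 25 of 34 in Mm343880 (73.5%, beside 5.54%), and 0 fell in either. All 15 of the Tcl1 genes were among the 25. With day as a block 13 rose in Tcl1 and 23 in Mm343880. The medians were 0.72 and 1.22, and 0.10 with the empty vector, in which 1 of 34 rose (0.702% of all genes). Acta1, skeletal muscle actin, went from 113 on day 0 to 6933 on day 5 in Tcl1 and from 127 to 8979 in Mm343880, against 71.5 and 473 with the empty vector. Its change was 4.31 in Tcl1 and 4.74 in Mm343880 (limma adjusted p = 2.58e-08 and 9.75e-10). Tagln, an actin-bundling protein of smooth muscle, changed by 3.69 and 4.68 (adjusted p = 1.02e-06 and 1.99e-09). Acta2, smooth muscle actin, changed by 2.67 and 3.64 (adjusted p = 2.64e-07 and 1.11e-10).

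The rise was the larger in Mm343880 in 29 of the 34 genes, but the difference of the changes passed for 0 of them (lowest limma adjusted p = 0.092). On day 2 Acta2 already read 5265 in Tcl1 against 2169, and on day 6 it read 10523 against 20647. Over all days 5 of 34 were higher in Tcl1 (14.7%, beside 5.73%) and 1 lower (2.94%, beside 6.56%). Higher were Srf itself (0.36, adjusted p = 0.0136), its coactivator Mrtfa (0.35, adjusted p = 0.0078), Myl9, Actg2 and Cnn3. The lower gene was Actb, called in 9 of the 27 other settings. A second probe set of Actb read -1.11 over all days and -1.38 late (limma adjusted p = 6.65e-10 and 1.31e-07). In the late window 0 were higher and 3 lower: the cytoplasmic actins Actb (-0.46, adjusted p = 0.0104) and Actg1 (-0.39, adjusted p = 0.00841), and Actn4 (-0.39, adjusted p = 0.047). Actb and Actn4 missed the late threshold with day as a block (adjusted p = 0.0701 and 0.0615). The chosen Actb probe set had no such direction after quantile normalization, at 0.01. The Gapdh and actin control ratios moved with these actins, the late MOE430A actin 3′ to 5′ ratio being 0.999 to 1.01 in Tcl1 and 1.09 to 1.21 in Mm343880, and their part was not tested. The counts of rises among these 34 genes were not recomputed with samples left out. Without day 0 the whole-array count of genes changed in either direction went from 306 to 51 in Tcl1 and from 1347 to 94 in Mm343880. Those whole-array counts were 180 and 832 without day 1, and 76 and 470 without day 6.

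**Figure D5:**
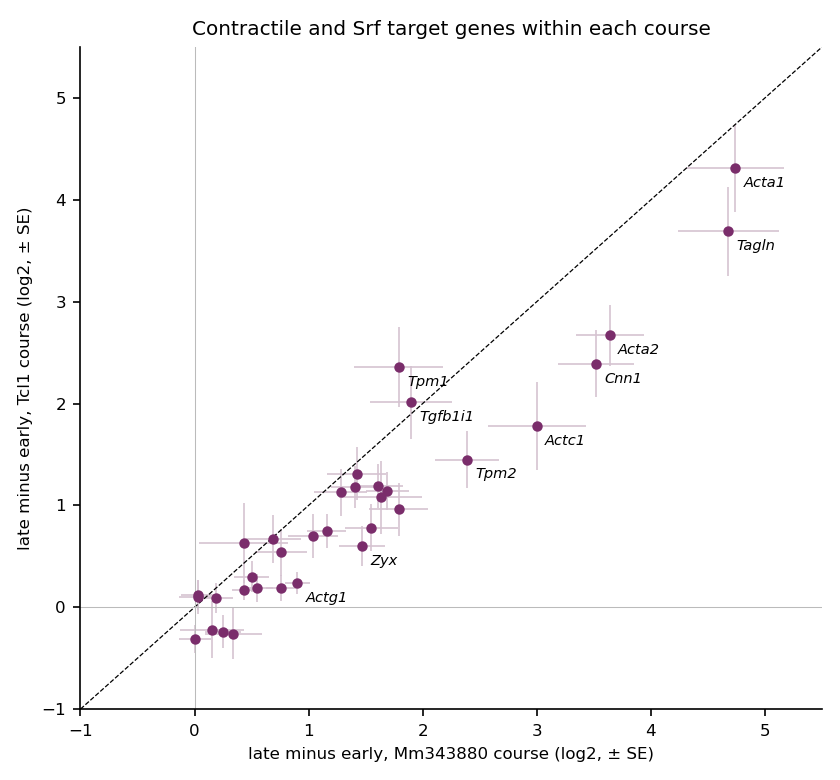
Late minus early change (log2, ± SE) of 34 contractile and Srf target genes in the Tcl1 course (vertical) against the Mm343880 course (horizontal), which share no sample; the dashed line marks equal change. Acta1, Tagln, Acta2 and Cnn1 are farthest out in both, and 29 of the 34 lie below the line.

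Srf binds the CArG box, and the promoters are shown because the list was built around that factor. RefSeq promoters of the GRCm38.p6 build (the 250 bases before the gene start, matched by symbol) were found for 29 of the 34 genes, and 9 of them hold a CArG box (31%), beside 1.47% of all 32851 promoters and 1.1% of the 11775 of genes tested. The pattern is its own reverse complement, so a single search covers both strands. The 3 sequences are stretches of 100 bases with the box in capitals, 5′ to 3′ on the gene's strand: Acta1, which rose in both courses, from chr8:123894794-123894893 on the minus strand; Myl9, which rose in both, from chr2:156775258-156775357 on the plus strand; and Srf, which rose in neither, from chr17:46556190-46556289 on the minus strand, with 2 boxes.
Acta1: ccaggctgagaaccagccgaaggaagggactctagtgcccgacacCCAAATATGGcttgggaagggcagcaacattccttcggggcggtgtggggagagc
Myl9: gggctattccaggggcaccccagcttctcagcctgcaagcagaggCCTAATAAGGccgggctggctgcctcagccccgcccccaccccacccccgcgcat
Srf: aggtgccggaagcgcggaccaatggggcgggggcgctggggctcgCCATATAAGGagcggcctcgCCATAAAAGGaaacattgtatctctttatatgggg

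The first box starts 73, 161 and 82 bases before the start of Acta1, Myl9 and Srf. Myl9, a myosin light chain, changed by 0.96 in Tcl1 and 1.79 in Mm343880 (limma adjusted p = 0.0425 and 1.05e-05; the former 0.139 with day as a block), and Srf by -0.24 and 0.25 (adjusted p = 0.647 and 0.387). Actc1, Actg1, Cnn2, Fhl1, Fhl2 and Vcl hold a box as well. The promoters of Acta2 and Cnn1 hold no match in these 250 bases.

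Krt18, Krt8, Krt19, Igf2 and Car4, chosen after their values were seen and all but Car4 also members of the trophectoderm list, rose in both courses by the probe set kept for each. Krt18 went from 385 to 9759 between days 0 and 6 in Tcl1 and from 481 to 13279 in Mm343880, and from 516 to 2294 with the empty vector. Its change was 3.76 in Tcl1 and 3.69 in Mm343880 (limma adjusted p = 3.46e-11 and 5.9e-11). Krt8, its partner, changed by 2.55 and 3.57, and Krt19 by 2.99 and 3.12. The growth factor Igf2 changed by 3.24 and 3.31 and the carbonic anhydrase Car4 by 3.12 and 3.87. A second Igf2 probe set changed by -0.37 in Tcl1 and 1.69 in Mm343880, and was lower in Tcl1 late (-1.07, limma adjusted p = 0.0388). None of Krt18, Krt8, Krt19, Igf2 or Car4 differed between the knockdowns over all days. In the trophectoderm list 9 of 25 rose in each course (36%, beside 1.57% of all genes in Tcl1 and 5.54% in Mm343880), 1 fell in Mm343880, and 2 of 25 (8%) rose with the empty vector. With day as a block 6 rose in each knockdown course and 0 fell. Esx1, a homeobox gene of the placenta, was the gene of that list higher in Tcl1, reading 282 on day 0 and 900 on day 6 against 169 and 404 (1.13 ± 0.15 over all days, adjusted p = 1.99e-06). The summed signal of the 6 trophectoderm markers was 2710 to 5230 late in Tcl1 and 2810 to 7200 in Mm343880, from 1350 to 2080 and 1550 to 1920 early, and 1560 to 2560 late with the empty vector. The 6 measured fibroblast markers summed to 1380 to 1700 late in Tcl1, 1650 to 1880 in Mm343880 and 1270 to 1520 with the empty vector.

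Of 26 genes of proliferation 1 was higher in Tcl1 (3.85%, beside 5.73% of all genes) and 5 lower (19.2%, beside 6.56%) over all days. Mki67, the proliferation antigen, read 259 to 612 in Tcl1 and 453 to 2014 in Mm343880, where days 3, 4, 5 and 6 read 2014, 1350, 1714 and 1037 (-1.20 ± 0.22, limma adjusted p = 0.000287). Bub1, Kif11, Top2a and Mcm5 were lower as well, at -0.73, -0.55, -0.45 and -0.34. Kif11 and Top2a missed the threshold with day as a block (adjusted p = 0.113 and 0.0698), and these 2 were called in 16 of the 27 other settings each. The other probe sets of Mcm5 read 0.21 and 0.31. Aurka, a mitotic kinase, was higher, at 0.32 (limma adjusted p = 0.00405), with its second probe set at -0.83 (adjusted p = 0.123). In the late window Mcm3, Aurka and Mcm2 of that list were called higher in Tcl1, at 0.60, 0.40 and 0.34. Mki67 was called lower late, at -1.58. No other probe set of Mcm3, Aurka or Mcm2 was called late. Rbm25, a splicing factor that is no member of that list, was also highest on days 3 and 5 of Mm343880, at 1698 and 1677, against 423 and 281 in Tcl1. The Rbm25 difference over all days was -1.34 ± 0.25 (limma adjusted p = 0.000334). Its other probe sets read -0.61 (adjusted p = 0.0181), -0.28 and -0.22. With the empty vector Mki67 and Rbm25 were highest on day 0, at 1507 and 1232. Among 17 genes of the p53 pathway 4 were lower (23.5%) and 1 higher (5.88%), and with day as a block 2 were lower and 0 higher. The p53 target Ccng1 lay at 3903 to 4872 against 4596 to 7210 (-0.44 ± 0.08, adjusted p = 0.000362), and was above the empty vector late in both courses, at 0.52 and 0.83. Trp53inp1, which promotes cell death, was lower by the fit at -0.84 ± 0.18 (adjusted p = 0.00123), and its second probe set read -0.12.

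Of 22 sterol synthesis genes 3 were lower (13.6%, beside 6.56% of all genes) and 2 higher (9.09%, beside 5.73%). Hmgcs1, the enzyme that makes HMG-CoA for cholesterol, read 2746, 1122, 927, 2011, 2524, 2627 and 2062 in Tcl1. In Mm343880 it read 6592, 4192, 2857, 6425, 5234, 6880 and 4864, with no overlap (-1.42 ± 0.17, limma adjusted p = 1.76e-07). Its 4 other probe sets were called as well, at -1.39 to -0.75. Against the late empty vector it was 0.00 in Tcl1 and 1.23 in Mm343880 (adjusted p = 0.999 and 0.000613). Idi1, a later enzyme of the same pathway, was lower on 7 of 7 days (-0.81 ± 0.21, adjusted p = 0.00763), as was the sterol carrier Stard4 by the fit (-0.57, adjusted p = 0.0116). Mvk and Lss, also of that pathway, were higher, at 0.43 and 0.44 (adjusted p = 0.0239 and 0.0286), and were called in 18 and 17 of the 27 other settings.

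Of 16 germ line genes 2 were higher (12.5%, beside 5.73% of all genes) and 1 lower (6.25%, beside 6.56%). With day as a block 2 were higher and 0 lower. Mael, which guards germ cells against transposons, went from 290 on day 0 to 620 on day 6 in Tcl1 and stayed at 172 to 264 in Mm343880 (0.75 ± 0.13, limma adjusted p = 0.000103). The Mael median in Tcl1 was the highest of the 9 courses. In the interferon list of 19, the membrane protein Ifitm1 was lower on each day, at 6705 to 16438 against 16880 to 25298, with no overlap (-0.89 ± 0.10, adjusted p = 6.3e-08), while B2m and Ifi35 were higher (0.50 and 0.53), 10.5% of the list higher and 5.26% lower. The calls of B2m and Ifi35 were lost with day as a block (adjusted p = 0.0981 and 0.09), and the 2 other probe sets of Ifi35 read -0.01 each. Of 17 retinoic acid response genes 1 was higher (5.88%) and 2 lower (11.8%), among the latter Crabp2, which carries retinoic acid. It reached 460 on day 6 in Mm343880 and 63.1 in Tcl1 (-1.42 ± 0.38 late, limma adjusted p = 0.00845, and 0.14 with the block). With the block 1 of the 17 was higher over all days and 0 lower. Over all days 2 of 18 neuroectoderm genes were higher (Gbx2 and Zic2) and 2 lower (Neurod1 and Tubb3), 11.1% each. Tubb3 was called in 6 of the 27 other settings and was at adjusted p = 0.131 with the block. The lists for glycolysis and for mesoderm held 0 genes called over all days. In the late window 1 of 19 mesoderm genes was lower (5.26%, beside 3.91% of all genes), Fgf8 at -0.97.

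Among the largest late differences were genes that separated in the last days. Kif7, a kinesin of the Hedgehog pathway, held 318 to 471 in Tcl1 throughout and dropped to 54.0, 99.6 and 40.2 on days 4 to 6 of Mm343880 (2.22 ± 0.35 late, limma adjusted p = 8.06e-05). AF067061 differed most in the other direction, at -2.72 ± 0.49 (adjusted p = 0.000512), and climbed in Mm343880 from 72.9 on day 0 to 1753 on day 5 and 8381 on day 6. In Tcl1 it was 553 and 408 on those days. Gxylt1 and Itsn2 followed, both at -2.43, and on the higher side Prdm11 was at 1.87 and Cd14, a receptor for bacterial lipids, at 1.38. Without day 6 of Tcl1 or of Mm343880 none of Kif7, AF067061, Gxylt1, Itsn2, Prdm11 and Cd14 passed (adjusted p = 0.0553 to 0.723), and Itsn2 was at -0.59 without the former. The 4 other probe sets of Itsn2 read -0.85 to -0.23 late, and the mean of the Prdm11 probe sets 0.56 (adjusted p = 0.278). Early, on days 0 and 1, 182 genes differed (1.24%), 99 higher (0.675%) and 83 lower (0.566%). This count was 8 without day 0 of Tcl1, 4 without day 0 of Mm343880 and 110 without its day 1, and 64 with day as a block. Of the genes called late, 42 higher and 33 lower were also called early in the same direction, and 0 in the opposite one.

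Within their own courses, which share no sample, 231 genes rose in Tcl1 (1.57% of all genes) and 812 in Mm343880 (5.54%). Changes in either direction came to 2.09% and 9.18%. Of the rises, 183 were in both courses (79.2% of those in Tcl1, 22.5% of those in Mm343880). Falls numbered 75 (0.511%) and 535 (3.65%), with 52 in both (69.3% and 9.72%), and 0 genes went opposite ways. A difference in change over time passed for 4 genes (0.0273%), 1512 having an unadjusted p under 0.05. With day as a block 0 genes passed it and 164 changed within Tcl1. The count of differences in change was 12 and 8 without day 4 or 5 of Tcl1. In Mm343880 it was 1 without day 0, 2 without day 1 or 2, 8 without day 4 and 56 without day 5. Set beside the empty vector, whose samples both comparisons share, 1367 genes differed late in Tcl1 (9.32%; 5.19% higher and 4.13% lower) and 2171 in Mm343880 (14.8%; 7.76% and 7.04%). Of the 440 genes higher in Tcl1 late, 93 were above the empty vector in Tcl1 and 198 below it in Mm343880. Of the 574 lower genes, 72 were below it in Tcl1 and 268 above it in Mm343880, and 151 of the 440 and 238 of the 574 were called in neither. The empty vector counts were 823 and 398 in Tcl1 without its day 5 or day 6, and 1415 and 944 in Mm343880 without its day 5 or day 6. With day as a block the Mm343880 count was 1416.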

How the data were processed

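Total RNA of sorted CCE cells was hybridised to Affymetrix MOE430A and MOE430B arrays, per the labels. The deposited intensity values are MAS5 signals, per the submitters' processing notes; further MAS5 settings are not given in the sources used here. Signals were used as deposited. Gene names came from the platform annotation, and each gene kept the probe set with the highest mean rank. A probe set had to exceed its table's median, 282.8 (A) or 89.3 (B), on 3 arrays, and the pseudocount was the 20th percentile of the table. Natural splines of day (3 degrees of freedom) for each of 9 courses were fitted to 63 samples with limma 3.58.1 in R 4.3.3 (eBayes with trend), A and B separately, with Benjamini-Hochberg adjustment over both. Late is days 4 to 6 and early days 0 and 1. The members, the gene lists and the naming rule (markers and regulators, the 10 largest late differences each way, list members by size, the 5 largest early differences, the Akt pathway) were chosen with earlier results of these data known. The average over days 0 to 6, its 10 largest genes each way, its list members and further single genes (Rbm25, Krt18, Igf2 and Car4 among them) were added after values were seen, as were the array weights and the median centring. The fit was tested on simulated data. The deviations of same-day samples of the 2 courses correlated over genes at 0.14 to 0.35 on MOE430A, over 0.1 on every day, and at 0.02 to 0.10 on MOE430B, so a fit with day as a block is given beside the unpaired one. The highest correlation of an array with another was 0.9772. Alternatives were other pseudocounts, filters, normalizations, probe set choices, splines and fits, and leaving out each sample.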

Additional observations from a re-analysis of the deposited data

Results flagged for a closer look

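The difference in change over time, Tcl1 minus Mm343880, passed a test of the difference itself for 4 genes (limma, adjusted p under 0.05), each with the more positive change in the Tcl1 course. Nckap5l had a difference of 2.20, reading 110 on day 0 and 253 on day 6 in Tcl1 against 273 and 75.4 in Mm343880. Ryk, a Wnt co-receptor, had 2.07, with 127 on days 0 and 1 in Tcl1 and 815 on day 6, against 1028, 889 and 1174. The Tcl1 median of Ryk, 501, was the lowest of the 9 courses, beside 509 with the empty vector. Socs6, an inhibitor of receptor signalling, had 1.74, from 291 to 418 against 482 to 358. Eif4b, a translation initiation factor, had 0.86, from 6131 to 9065 against 9768 to 6584. The count was 0 with day as a block, with no spline, with only the courses compared and with the pseudocount at the table median. Other probe sets gave 1.40 and 0.47 for Ryk and 0.16 for Socs6, none called, and 1.25 and 0.99 for Eif4b, both called. In 32 genes the 7 day-matched differences were examined for a day far from the others, by the gap of the highest or lowest day over the range, and 0 had one.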

How the results depend on the processing

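The comparison of Tcl1 with Mm343880 over days 0 to 6 called 1804 genes and 691 to 1939 with 1 sample left out, 949 with no spline, 1085 with only the courses compared and 3833 over all probe sets. The late count was 1014 and 87 to 1167 with 1 sample left out (38 to 466 higher, 25 to 701 lower). With no spline it was 280 (166 and 114), with only the courses compared 428 (188 and 240), and over all probe sets 2668 (997 and 1671). Lower genes alone were 379 after quantile normalization and 357 with a spline of 2 degrees of freedom. The early count, 4 to 204 with 1 sample left out, was 115 with that spline, 35 with no spline, 17 with only the courses compared and 440 with array weights. With day as a replicate block (a paired fit), the counts were 1296 over all days, 438 late (231 and 207), 64 early, 0 for the difference in change, 164 within Tcl1 and 1416 for Mm343880 against the empty vector. The difference in change was 1 to 56 with 1 sample left out, 0 with the pseudocount at the table median, with no spline or with only the courses compared, 2 without the intensity trend, 8 with no filter, 10 over all probe sets, 14 with median centring and 29 with array weights. Changes within Tcl1 were 51 to 331 with 1 sample left out, 71 with no spline and 167 with only the courses compared. Within Mm343880 they were 94 to 1361, 645 and 780, and 2444 over all probe sets. Against the empty vector Tcl1 gave 398 to 1476, 675 with no spline and 2314 over all probe sets, and Mm343880 gave 944 to 2458, 1042, 4010 and, with only the courses compared, 1362. The late difference of Tcl1, -0.95 with no spline (adjusted p = 0.0896), was -1.26 to -0.63 with 1 sample left out. That of Cnn1, -1.19 to -0.60, passed with the pseudocount at the table median (-0.66, adjusted p = 0.0419) and without day 0 of Tcl1 (-0.86, adjusted p = 0.0488). Late Actb, by its chosen probe set, turned sign under quantile normalization, at 0.01. Probe sets beside the chosen one kept the sign in 71 of 87 and passed in 25, with 0 called the opposite way. Signal near background limits genes under the pseudocount, whose differences are understated. The causes of these dependences were not tested.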
